A study of Mus musculus with 4 samples.

Results

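Cohesin subunits, securin and separase are the 10 genes described here, out of 23309 gene names in the deposited expression table. They were taken by exact symbol: the mitotic subunits Smc1a, Smc3, Rad21, Stag1 and Stag2, the meiotic subunits Smc1b, Rec8 and Stag3, the securin gene Pttg1 and the separase gene Espl1. All 10 were found. The members were chosen by name and function, with the FPKM values and calls of this contrast known, above all the low Pttg1 value of the mutant. Their levels and calls below are a description of these libraries and support nothing further.

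RNA was sequenced from mouse embryonic stem cells of strain 129/Ola at passages 10 to 20, either wild type or with the genotype Chd2 mut/mut, which the sample titles call Chd2KO. Both genotypes were cultured on gelatin with serum and LIF, the cytokine that keeps such cells undifferentiated. Each genotype had 2 libraries of total RNA, lot 1 and lot 2. The labels give neither the way the mutation was made nor the relation between the lines, nor whether a line is a single clone or a lot is a separate culture. The table holds 1 FPKM value (sequenced fragments relative to transcript length and to all fragments mapped) per gene and genotype, so no level below has a replicate error, and the sequencing depth is unknown. Statements on significance are the authors' own q-values and calls, and the spread behind them may be technical.

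Chd2, which encodes a chromatin remodeler of the chromodomain family, was at 10.2 FPKM in wild type against 5.69 FPKM in the mutant, or 55.9% of the wild-type level, and was called in the authors' deposited table (q = 0.0103). Of the 10 embryonic stem cell markers checked, the lowest was at 16.7 FPKM in wild type. None was called, while 8 of the 10 lay above 0 on the log2(FPKM + 1) scale, mutant minus wild type, with a median of 0.13, among them Nanog at 114 and 150 FPKM (q = 0.293) and Sox2 at 178 and 222 FPKM (q = 0.496). Of 8 fibroblast markers, 7 were under 1 FPKM in both genotypes, and Thy1 was at 14.2 and 11.5 FPKM. Across the 10766 genes whose mean over the genotypes reached 1 FPKM, the median change was -0.0012 on the same scale, and 50.4% lay below 0.

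Cohesin is a ring-shaped complex that holds sister chromatids together from replication until anaphase and also extrudes chromatin loops in interphase. A pair of SMC proteins and a kleisin (Rad21 in mitotic cells) form the ring, and a STAG protein binds the kleisin. Germ cells replace the mitotic versions with Smc1b, Rec8 and Stag3 for the meiotic divisions. Securin holds the protease separase inactive until the anaphase-promoting complex marks securin for destruction, after which separase cuts the kleisin and the chromatids part. Embryonic stem cells divide fast, and many genes of this machinery peak in G2 and M phase.

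The authors' deposited table called 2 of the 10 members, Pttg1 and Stag3, both lower in the mutant. As background, 0.718% of the 11276 genes whose q-value was under 1 were called, with 0.461% called lower and 0.257% called higher. Because the choice of members used this contrast, nothing is read from the 2 calls against that background. Of the 10 members 8 reached a mean of 1 FPKM and had a q-value under 1, and these were the mitotic subunits, Stag3, Pttg1 and Espl1. Smc1b and Rec8 were below that level and had q-values of 1.

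**Figure D1:**
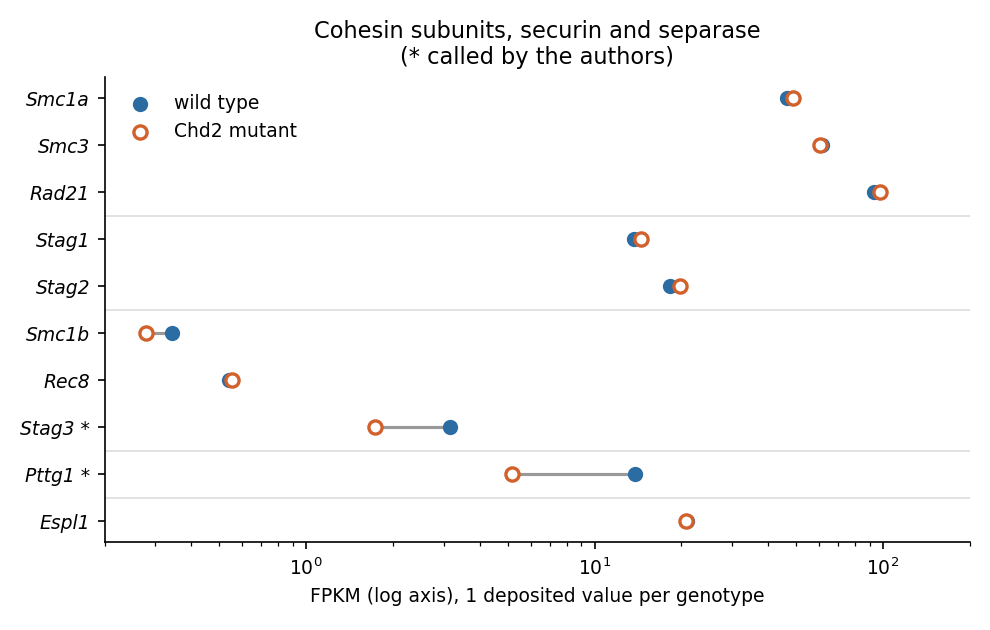
Level of each member in FPKM (log axis), with filled points for wild type, open points for the Chd2 mutant and a line joining the deposited values of a gene; an asterisk marks the authors' call. Pttg1 (13.8 and 5.185 FPKM) and Stag3 (3.15 and 1.73 FPKM) have the long lines, while the points of the mitotic subunits and Espl1 nearly coincide.

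Pttg1 encodes securin, which binds separase as chaperone and inhibitor. It was at 13.8 FPKM in wild type against 5.185 FPKM in the mutant, so the mutant held 37.6% of the wild-type level. In the authors' deposited table its log2 fold change was -1.41, with a q of 0.0103, a value shared by 55 genes and the smallest in that table. Its mean over the genotypes ranked 5788 of 10766, near the middle of the expressed genes. In bulk RNA, fewer cells with Pttg1 transcripts and less transcript per cell cannot be told apart.

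Pttg1 was set beside genes of like wild-type level. Its low mutant value was known when it was chosen, so its place among them is a description only. Of 3518 genes with a wild-type level within 2-fold of that of Pttg1 (6.89 to 27.6 FPKM), Pttg1 included, 9 had a lower mutant-to-wild-type ratio, and 3 of those were called. Of the 52 genes that the authors called lower, 10 had a lower ratio than Pttg1 and 29 a lower ratio than Stag3. Euclidean distances to Pttg1 were taken on the log2(FPKM + 1) scale and rest on only 2 values per gene. Symbols beginning with Mir, Snor or Gm, or ending in Rik, were left out. Among the other symbols, the 5 genes closest to Pttg1 in both genotypes were listed. They were Kdelr3 (11.1 and 6.02 FPKM, distance 0.34), Sfmbt2 (11.4 and 6.26 FPKM, distance 0.35), Chd2 itself (distance 0.42), LOC100504703 (11.3 and 6.75 FPKM, distance 0.42) and Gsta3 (10.1 and 5.85 FPKM, distance 0.43). Of these Sfmbt2, Chd2 and Gsta3 were called and Kdelr3 and LOC100504703 were not, although the log2 fold change of Kdelr3 (-0.88) was close to that of Sfmbt2 (-0.86) in the authors' deposited table. All 5 had a higher mutant level than Pttg1. They were picked by the same 2 values that give the change, so nothing is read from their calls. Of all genes with a q-value under 1, 0.461% were called lower.

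Espl1 encodes separase, the protease that Pttg1 restrains. It was at 20.97 FPKM in wild type against 20.8 FPKM in the mutant, or 99.0% of wild type, and was not called (q = 0.998). FPKM is scaled for length, so the partners can be set against each other. The transcript lengths behind that scaling are not stated, so a ratio between genes holds only for the lengths used. The ratio of Pttg1 to Espl1 was 0.657 in wild type against 0.2498 in the mutant. In these FPKM values separase transcript exceeded securin transcript 1.52-fold in wild type and 4.003-fold in the mutant.

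Stag3 encodes the STAG subunit of meiotic cohesin. Its level was low in both genotypes, at 3.15 FPKM in wild type against 1.73 FPKM in the mutant, or 55.0% of wild type. The log2 fold change in the authors' deposited table was -0.86 with a q of 0.0103. On the log2(FPKM + 1) scale, which understates the change of genes this low, the difference was -0.60. Among genes that reached a mean of 1 FPKM, 3135 were within 2-fold of its wild-type level (1.57 to 6.29 FPKM), Stag3 included. Of these 41 had a lower ratio, and 10 of the 41 were called. The filter on the mean drops genes of low wild-type level with the lowest mutant values, so 41 may be an undercount. At the length of its longest annotated coding transcript, 4211 bases in GENCODE M21, the levels correspond to about 13.3 and 7.29 fragments per 1000000 mapped. The same estimate for Pttg1, at 1674 bases, gave 23.1 and 8.68 fragments. The transcripts the authors used may be shorter, which would lower these estimates.

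Promoter windows of RefSeq (GRCm38.p6, 250 bases before to 50 after an annotated start) were found for 8 of the 10 members, all but Rad21 and Stag2. They were searched for letters known from cell-cycle and germline promoters. Stretches of the called genes Pttg1 and Stag3 and of the uncalled Espl1 are printed as a description. The motifs searched on both strands were the E-box CACGTG, the CHR element of G2 and M phase genes as TTTGAA or TTTAAA, and the CCAAT box. None overlaps another by its letters in the lines that follow. The first line gives the 192 bases before the Pttg1 start of the table, minus strand, a stretch inside the gene for longer annotated transcripts and free of annotated UTR, in lower case because it holds none of these motifs. The other lines give 26 bases round a match, plus strand, with the match in capitals. All 26 bases of the Stag3 line are annotated as UTR of another Stag3 transcript in GENCODE M21, so this E-box lies inside a transcript there, and 16 bases of the Espl1 CHR line are annotated likewise.
Pttg1, chr11:43425982-43426173: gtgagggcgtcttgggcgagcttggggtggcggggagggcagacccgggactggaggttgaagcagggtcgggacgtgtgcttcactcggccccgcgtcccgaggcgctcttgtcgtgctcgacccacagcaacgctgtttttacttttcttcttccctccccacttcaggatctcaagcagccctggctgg
Stag3, E-box, chr5:138280329-138280354: cgctggagccCACGTGacaggactgc
Espl1, E-box, chr15:102296161-102296186: cctccaggaaCACGTGacagacagcg
Espl1, CHR, chr15:102296256-102296281: actagggataTTTGAAaggaggtgct

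Stag3 and Espl1 were the only members of the 8 with an E-box in the window, against 7.15% of all 32851 windows in the table. Espl1 alone had a CHR match (27.6% of all windows), 27 bases before its start, together with 1 CCAAT match. A CCAAT match also stood in the windows of Rec8, which had 3, and of Smc1a, Smc1b, Stag1 and Stag3, and 37.4% of all windows held one. Pttg1 had no match in its window, and windows at the starts of its longer annotated transcripts were not searched. A part of these letters in the calls was not tested. A match is a description of letters, not a binding site.

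The ring of mitotic cohesin was abundant, and its levels were close between the genotypes. Rad21, the kleisin that separase cuts, was the most abundant member with 93.2 FPKM in wild type against 97.6 FPKM in the mutant. Smc3, the SMC subunit common to mitotic and meiotic rings, was at 61.5 and 60.4 FPKM. Smc1a, its partner in mitotic cells, was at 46.5 and 48.6 FPKM. The mutant thus held between 98.1% (Smc3) and 104.8% (Rad21) of the wild-type levels, and the q-value of each in the authors' deposited table was 0.998. The ratio of Rad21 to Smc3 was 1.51 in wild type against 1.62 in the mutant, and that of Smc1a to Smc3 was 0.756 and 0.805.

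Stag1 and Stag2, the alternative STAG subunits of mitotic cohesin, were less abundant than the ring. Stag1 was at 13.7 and 14.4 FPKM in wild type and mutant, and Stag2, encoded on the X chromosome like Smc1a, was at 18.2 and 19.7 FPKM. Neither was called (q = 0.998 for each). Stag2 had the highest mutant value relative to wild type of all members, at 108.1%. Of the 5 mitotic subunits 4 had a higher value in the mutant and Smc3 a lower one, with none called. In wild type the order of level was Rad21, Smc3, Smc1a, Espl1, Stag2, Pttg1, Stag1, Stag3, Rec8 and Smc1b. In the mutant Pttg1 stood below Stag1 and the rest of the order was the same. Pttg1 and Stag1 lay within 0.1 FPKM of each other in wild type. Without values per library, which other neighbours in this order differ beyond their spread is unknown.

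Meiotic cohesin transcripts were under 1 FPKM apart from Stag3. Smc1b, the meiotic SMC1, was at 0.343 FPKM in wild type against 0.278 FPKM in the mutant, and Rec8, the meiotic kleisin, was at 0.539 and 0.552 FPKM. At their longest annotated coding transcripts these levels correspond to 1.39 and 1.13 fragments per 1000000 mapped for Smc1b and 1.18 and 1.20 for Rec8. These are few per 1000000, and the number of fragments counted is unknown because the depth is unknown. As a share of summed FPKM at its position in the ring, Smc1b made up 0.732% of the SMC1 transcripts in wild type and 0.569% in the mutant. Rec8 made up 0.575% and 0.561% of the kleisin transcripts, counted with Rad21 and the meiotic Rad21l, which was listed at 0 for wild type and at 0.0906 FPKM for the mutant. Stag3 held a larger part of its position, at 8.98% of the STAG transcripts in wild type and 4.82% in the mutant. The summed STAG level was 35.1 FPKM in wild type against 35.9 FPKM in the mutant.

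**Figure D2:**
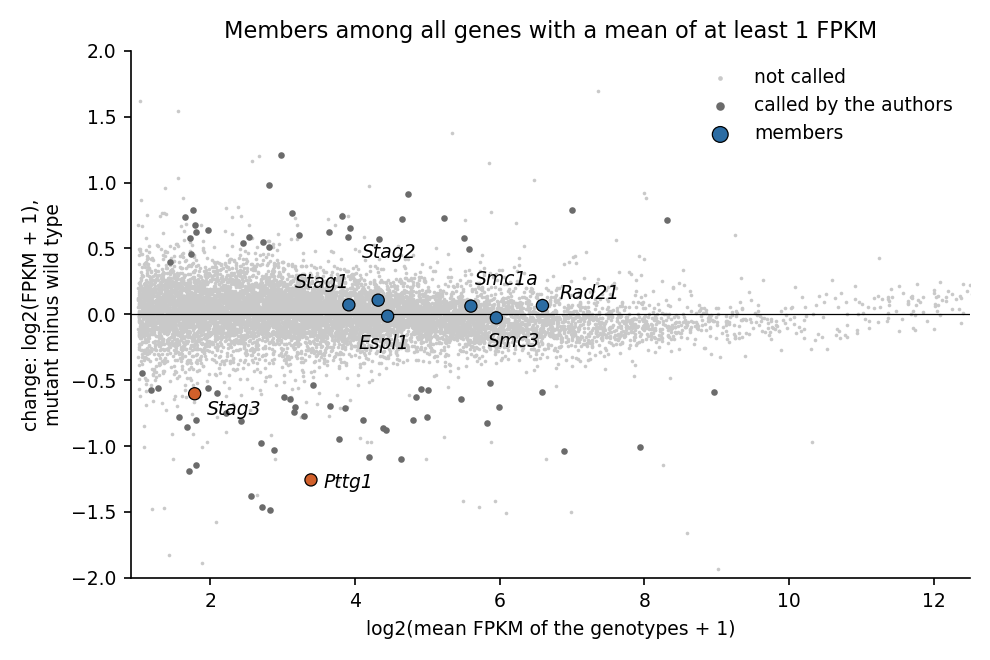
Change of log2(FPKM + 1), mutant minus wild type, against log2(mean FPKM + 1) for the 10766 genes that reached a mean of 1 FPKM (57 lie outside the vertical axis); small dark points were called by the authors, and large points are the 8 members that passed this level, orange where called. Pttg1 is at -1.26 and Stag3 at -0.60, and the other 6 members lie between -0.03 and 0.11. Some genes of like level, uncalled ones among them, had a lower mutant-to-wild-type ratio than Pttg1 or Stag3.

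Genes that act with the members were described by lists chosen for their function, again with earlier results of these data known. The 5 lists hold 102 genes, of which 90 reached a mean of 1 FPKM. Of these genes 91 had a q-value under 1 and none was called, against 0.718% of all such genes. Of the 90, 58 lay below 0 and 32 above, with a median change of -0.04 and a range from -0.38 to 0.28. Under quantile normalization of the genotypes 48 of the 90 lay below 0, against 47.7% of all genes that reached a mean of 1 FPKM.

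Cohesin is put on chromatin by a loader, locked by acetylation and taken off by Wapal. All 18 genes of this list were kept, 7 above 0 and 11 below, with a median of -0.02 that turned to 0.02 under quantile normalization. Cdca5, which encodes sororin, the factor that protects acetylated cohesin, was at 60.1 and 59.0 FPKM in wild type and mutant. The acetyltransferase gene Esco2 was at 57.2 and 55.2 FPKM and Chtf8, of the clamp loader that aids cohesion, at 53.5 and 51.3 FPKM. The largest differences were those of Dscc1 (12.3 and 10.3 FPKM), which belongs to the same clamp loader, the loader gene Nipbl (8.04 and 9.24 FPKM) and the shugoshin gene Sgol2 (11.02 and 12.51 FPKM). The lowest q-value in this list was 0.906.

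The anaphase-promoting complex destroys securin once the spindle checkpoint is satisfied. Of the 27 genes of this list, all kept, 7 lay above 0 and 20 below, with a median of -0.07. Ube2s and Ube2c, the ubiquitin-conjugating enzymes of the complex, were at 853 and 815 FPKM and at 343 and 323 FPKM in wild type and mutant, and the subunit gene Anapc13 at 288 and 282 FPKM. Cdc20, the activator that brings securin to the complex, was at 217 and 185 FPKM (q = 0.817). The subunit gene Anapc15 was at 99.9 and 78.9 FPKM (q = 0.542), the lowest q-value of the list, and the checkpoint gene Mad1l1 at 21.1 and 17.4 FPKM (q = 0.709).

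The related SMC complexes and the cell-cycle genes of G2 and M phase were tabulated beside Pttg1. In the list for condensin and SMC5/6, 5 of 15 genes lay above 0 and 10 below, with a median of -0.03. Nsmce4a was at 117 and 110 FPKM, the condensin gene Ncapd2 at 73.9 and 62.6 FPKM, Smc4 at 53.7 and 57.9 FPKM and Ndnl2 at 26.5 and 22.8 FPKM. Smchd1, which the list also holds although it belongs to neither complex, was at 11.6 and 13.9 FPKM. Of 23 genes for mitotic kinases, cyclins and spindle proteins, 7 lay above 0 and 16 below, with a median of -0.04. The mitotic kinase gene Aurka was at 72.3 and 57.1 FPKM (q = 0.452) and Plk1, a kinase that also removes cohesin from chromosome arms, at 100.1 and 82.9 FPKM (q = 0.673). Foxm1, a transcription factor of G2 and M phase genes, was at 11.6 and 14.0 FPKM. The abundant Birc5 (252 and 246 FPKM), Mybl2 (207 and 211 FPKM) and Top2a (175 and 180 FPKM) differed little between the genotypes. The changes of the list ran from -0.33, that of Aurka, to 0.26, that of Foxm1. Pttg1 was chosen with its low value known, so nothing is read from its place beside them. The part of the cell cycle in the Pttg1 value was not tested.

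The list for the meiotic axis and recombination holds 19 genes. Only 8 of them had a q-value under 1 and none was called, against 0.718% of all such genes. Of the 19, 10 had a higher and 7 a lower value in the mutant, and Spo11 and Meiob were listed at 0 in both genotypes. In all 11 were under 1 FPKM in both genotypes, and 7 reached a mean of 1 FPKM. Among the low ones, Hormad2 was at 0.666 and 0.145 FPKM and Stra8, a gene of meiotic entry, at 0.518 and 0.115 FPKM, each with a q of 1. Other low ones were higher in the mutant, such as Msh5 (0.106 and 0.173 FPKM) and Mei1 (0.0899 and 0.109 FPKM). At such levels no direction is read. Of the 7 that reached a mean of 1 FPKM, 6 lay above 0 and Syce1 below. Their median was 0.18, and the median was 0.01 without the filter on low values. Syce1, a synaptonemal complex gene, was at 5.496 and 4.01 FPKM (q = 0.652). Syce2 was at 67.8 and 77.9 FPKM, Mlh3 at 8.71 and 9.12 FPKM, the axis gene Sycp3 at 7.26 FPKM and, in the mutant, 124% of that, and the recombinase gene Dmc1 at 2.01 and 2.56 FPKM. Among 8 germ cell markers, of which Sycp1, Sycp3, Stra8 and Dmc1 are also in the meiotic list, 4 had a higher and 4 a lower value in the mutant, and 4 were under 1 FPKM in both genotypes. Their summed level, mostly that of Sycp3, Ddx4 and Mael, was 21.9 FPKM in wild type against 22.8 FPKM in the mutant. The lower ones were Stra8, Sycp1 (0.680 and 0.610 FPKM), Tex101 (0.716 and 0.219 FPKM) and Mael. Mael was at 4.64 and 2.68 FPKM (q = 0.164) and the germ cell helicase gene Ddx4 at 5.30 and 6.65 FPKM. Their part in the Stag3 value was not tested.

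**Figure D3:**
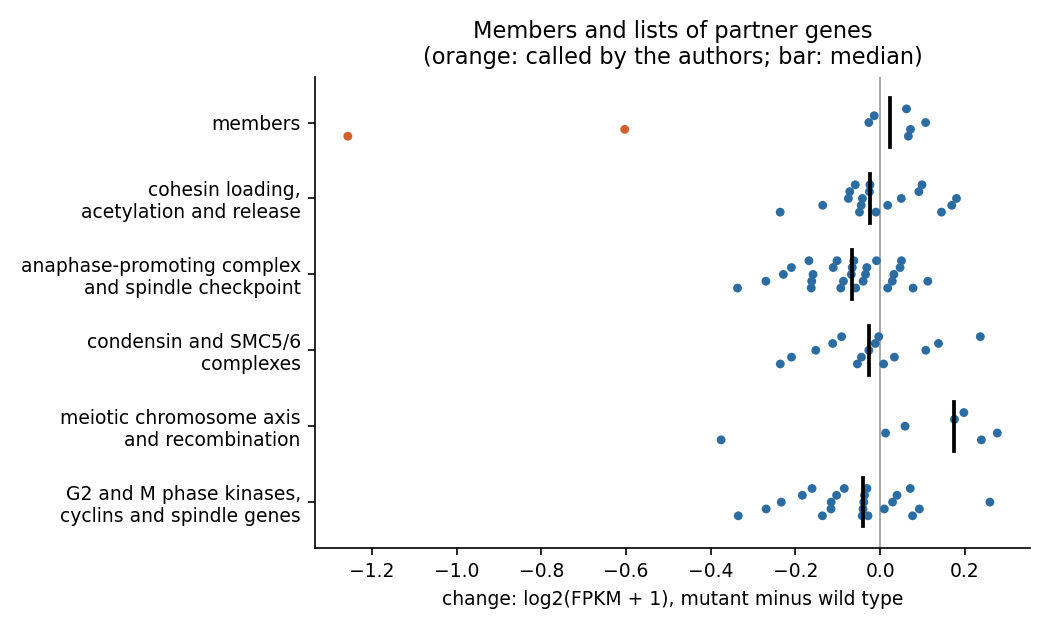
Change of log2(FPKM + 1), mutant minus wild type, for each gene that reached a mean of 1 FPKM among the members and the 5 partner lists; a point is a gene, orange points were called by the authors, and the bar is the list's median. Pttg1 (-1.26) and Stag3 (-0.60) are the orange points, and every partner gene lies between -0.38 and 0.28.

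Genes beside the members on the chromosome were listed from the RefSeq gene order of GRCm38.p6, with 3 listed protein-coding genes on each side. Of these 60 neighbours 40 had a q-value under 1, and 1 was called, or 2.5%, against 0.718% of all such genes. That gene was Aard, next to Rad21 on chromosome 15, at 17.1 FPKM in wild type against 8.37 FPKM in the mutant (authors' log2 fold change -1.03, q = 0.0103). Rad21 itself and Utp23 on its other side (12.2 and 12.1 FPKM) were close between the genotypes.

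Pttg1 lies on chromosome 11 among mostly silent genes. Slu7, a splicing factor gene and its nearest neighbour on the side of higher coordinates, was at 15.96 and 16.03 FPKM in wild type and mutant, and Ccnjl at 0.966 and 1.02 FPKM. C1qtnf2, Gabra6 and Gabrb2 were listed at 0 in both genotypes, and Atp10b was under 0.01 FPKM. Neither Slu7 nor Ccnjl was called (q = 0.998 for each). Stag3 lies on chromosome 5 and overlaps Gpc2 and Gal3st4 in this annotation. Gpc2, a glypican gene, was at 1.47 and 2.09 FPKM (q = 0.682), higher in the mutant where Stag3 was lower, and Gal3st4 at 0.335 and 0.319 FPKM. No label or header says whether the authors' counting used strand, so reads of these overlapping genes may not be fully separated. The same holds for Smc1a with Ribc1 (2.41 and 2.66 FPKM) and for Smc1b with Fam118a (12.7 and 12.6 FPKM). Lamtor4, also beside Stag3, was at 66.7 and 54.0 FPKM and Zfp157 at 2.505 and 2.80 FPKM.

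**Figure D4:**
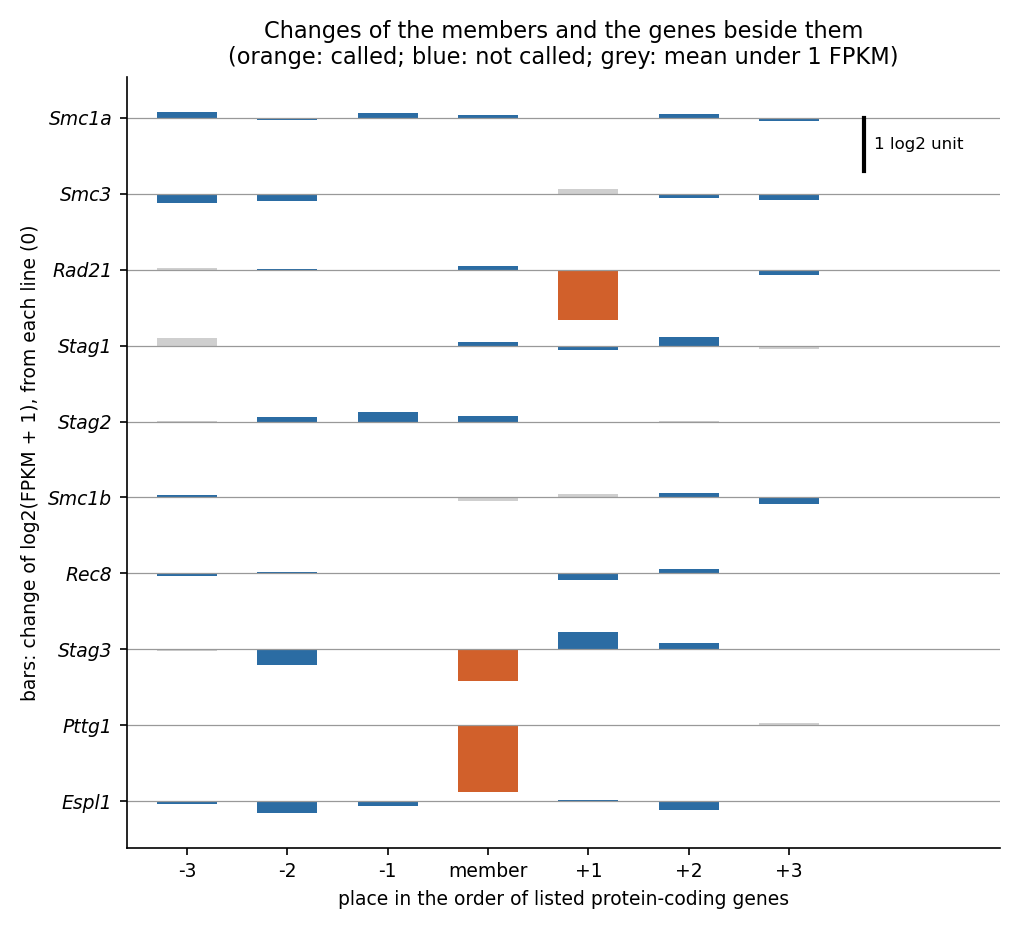
Change of log2(FPKM + 1), mutant minus wild type, for each member and the 3 listed protein-coding genes on each side of it in gene order; bars start at the line of the member (0), with the scale bar at 1 log2 unit, orange for called genes, blue for uncalled ones and grey for a mean under 1 FPKM. The downward orange bars are Pttg1 (-1.26), Stag3 (-0.60) and Aard beside Rad21 (-0.95).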

How the data were processed

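Libraries were made with the NEBNext Ultra RNA kit, per the labels' protocols. The tools named per the submitters' processing notes are TopHat2 2.1.0, Cufflinks and bcl2fastq 2.17.1.14, with mouse build mm9. The Cufflinks version, the annotation and the test that gave the q-values are not stated there. The authors deposited 1 FPKM value per gene and genotype, with the call of each gene, its q-value and its log2 fold change (mutant against wild type), per the file headers. The authors called every gene with a q under 0.05.

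With no values per library, the limma fit first planned could not be run and no test was made. Changes were computed as log2(FPKM + 1), mutant minus wild type, with Python 3.11.15 and pandas 2.3.3, over genes that reached a mean of 1 FPKM, and the functions were tested on simulated data. The members and lists were chosen with earlier results of these data known. Named genes are the members, Chd2, and the 3 most abundant and 3 most changed genes of each list. Also named are the 3 neighbours on each side of Pttg1 and the 5 genes nearest to it in level after the filter on symbols. Other neighbours, Rad21l, the genes of the meiotic list under 1 FPKM and cell type markers were named once values were known. The chromosomes, gene order and sequences come from RefSeq GRCm38.p6 and transcript lengths from GENCODE M21, matched by symbol.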

Additional observations from a re-analysis of the deposited data

How the results depend on the processing

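The authors' q-values rest on 2 libraries per genotype, and depth is unknown, so the precision of each level cannot be given. A change was taken as moved where it differed by over 1.5 times. Pttg1 stayed between -1.41 (no pseudocount) and -1.26 and Stag3 between -0.86 (no pseudocount) and -0.60 under 4 alternatives: a pseudocount of 0.1 or none, quantile normalization and the median set to 0. Of 32 such values for the uncalled members 8 moved, and Smc3 changed sign, to 0.03 under quantile normalization. Keeping only calls with a log2 fold change of 1 or more in size left 28 of 81 and 1 of the 2 members, Pttg1. Quantile normalization moved the medians of the lists for loading and release to 0.0155, the anaphase-promoting complex to -0.0254, condensin and SMC5/6 to -0.0058 and G2 and M phase to -0.0247, and dropping the filter moved the meiotic list to 0.0128. The cause was not tested. No paired analysis was possible because the table has no columns for the separate lots, and leaving out a library could not be run for the same reason.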
